A study of Mus musculus with 64 samples.

Results

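Primary mammary tumors of a homozygous Abi1 knockout (KO) mouse, G174 (fl/fl, Cre+; tumors 1 and 6), were compared with tumors 3 and 6 of G164, a heterozygous KO mouse (fl/wt, Cre+). The comparison used 32 of the 64 lane files of the study, which hold 4 of its 8 tumors, and the tumors were grouped by the genotype in their labels. All mice were female, carried the PyMT transgene on C57BL6 and floxed Abi1, and the Cre transgene came from the MMTV-Cre Line D strain of mixed background. The other 4 tumors were controls with floxed Abi1 and no Cre, from mouse G184 (fl/fl; tumors 6 and 9) and mouse G144 (fl/wt; tumors 6 and 8). Each genotype was 1 mouse, so the p-values below reflect how much the tumors within a mouse vary. In the study's histology records G164 and the control G184 were older than G174 and the control G144. Genotype, mouse and age therefore cannot be told apart in the comparison of G174 with G164.

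ABI1 is an adaptor protein of the WAVE complex, which receives signals from the small GTPase RAC1 and switches on the ARP2/3 complex to build branched actin filaments at the cell edge. The middle T antigen of polyomavirus, expressed in the mammary gland of PyMT mice, recruits the kinase SRC, the adaptor SHC1 and PI 3-kinase and gives rise to multifocal tumors. The MMTV promoter directs Cre to mammary epithelium, where it removes floxed Abi1, and MMTV-Cre strains can also recombine in other cells, lymphocytes among them. Which cells of these tumors lost Abi1 was not measured. The question was how the transcriptome of a Cre+ tumor with both copies of Abi1 floxed differs from that of a Cre+ tumor with a single floxed copy.

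Total RNA was sequenced after removal of ribosomal RNA, and reads were counted per gene. The 4 KO tumors had 50346075 to 67587829 gene counts, and all 8 tumors had 50346075 to 69264893. The variance between the tumors of a mouse, in multiples of counting error, averaged 41.3 over genes in G164 and 103 in G174, against 1.11 to 1.15 between sequencing runs of a tumor. Levels are given as CPM, counts scaled to a common library size with TMM factors. A gene was called higher or lower when its p-value from edgeR's quasi-likelihood test, adjusted by the Benjamini-Hochberg method over the 22187 genes tested, was under 0.05.

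Abi1 itself was measured at 8.93 CPM in tumor 1 and 6.47 CPM in tumor 6 of G174. It was at 63.1 CPM in tumor 3 and 66.7 CPM in tumor 6 of G164, and at 111 to 130 CPM in the control tumors. Levels fell in the order control, heterozygous KO, homozygous KO without overlap between the KO mice or between them and the controls. Between the KO mice Abi1 fell by 3.08 ± 0.17 on the log2 scale (SE; adjusted p = 0.000806, edgeR), which is 8.43-fold, and the controls did not pass the test (log2 -0.03, adjusted p = 0.918). The 586 and 430 counts left in the G174 tumors are totals per gene, so the part of Abi1 they came from is not known. The cells they came from were not separated. Gm13357, a processed pseudogene that lies inside Abi1 on the same strand (chromosome 2, 23019131 to 23019667, GRCm38), also fell, from 1.20 and 1.03 CPM in G164 to 0.198 and 0.0602 CPM in G174 (log2 -3.09, adjusted p = 0.0177). Reads of Gm13357 and of unspliced Abi1 RNA cannot be told apart in these counts.

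The make-up of the ABI family differed between the KO mice. Per kb of exon, the 3 ABI genes together reached 10.7 and 12.2 CPM per kb in the G174 tumors, 25.4 and 24.998 in the G164 tumors and 36.3 to 40.8 in the controls. Abi2, the closest relative of Abi1, held 67.2% and 66.7% of that sum in G174 and 26.3% and 23.6% in G164, while Abi1 held 20.7% and 13.1% against 61.7% and 66.2%. Abi2 itself stood at 61.3 and 69.6 CPM in G174 and at 56.9 and 50.3 CPM in G164, levels that did not overlap but missed the threshold (log2 0.29 ± 0.11, adjusted p = 0.159). Abi3 did not pass either (log2 -0.58, adjusted p = 0.274).

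**Figure D1:**
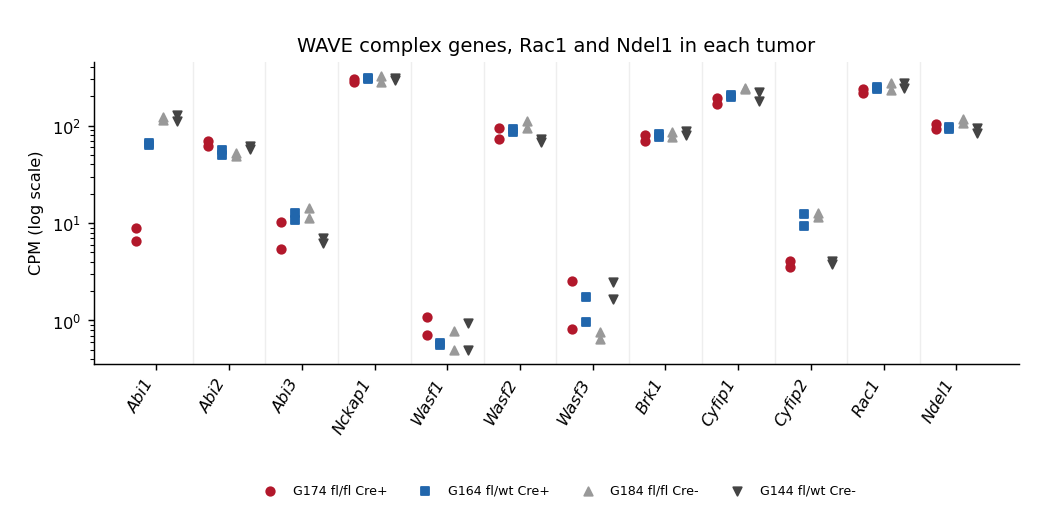
Level in CPM (log axis) of the WAVE complex genes, Rac1 and Ndel1, with 1 point per tumor and 2 tumors per mouse. Abi1 lies at 6.47 to 8.93 CPM in G174, at 63.1 to 66.7 CPM in G164 and at 111 to 130 CPM in the control mice, and Cyfip2 is at 3.57 to 4.11 CPM in G174 and 9.26 to 12.5 CPM in G164.

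Of the 12 genes that encode WAVE complex subunits and their partners RAC1 and NDEL1, only Abi1 and Cyfip2 were called, both lower in G174. Over all genes tested 7.1% were called, 1.79% higher and 5.31% lower. Cyfip2, a RAC1-binding subunit, was at 4.11 and 3.57 CPM in G174 and at 9.26 and 12.5 CPM in G164 (log2 -1.50 ± 0.20, adjusted p = 0.0131). Its control tumors lay at 11.5 and 12.7 CPM in G184 and at 4.10 and 3.84 CPM in G144, so the fl/fl mouse was the higher one without Cre and the lower one with Cre. When 1 tumor was left out, the log2 value of Cyfip2 ran from -1.68 to -1.27, and its call did not hold in every such run. The other 10 did not pass the test, with values from -0.58 for Abi3 to 0.63 for Wasf1. Nckap1, an abundant subunit, was at 281 and 306 CPM against 299 and 308 CPM. Wasf1, a WAVE protein at low level here, was at 0.701 and 1.08 CPM in G174 and at 0.591 and 0.561 CPM in G164 (adjusted p = 0.374), and Wasf3 was at 0.823 and 2.51 CPM against 1.73 and 0.962 CPM (adjusted p = 0.756). None of the 10 genes of the ARP2/3 complex was called by edgeR (median log2 0.09), while 2 were higher at an unadjusted p under 0.05 and 2 with DESeq2. Among 22 kinases and adaptors that bind ABI1 or middle T, such as Src, Shc1 and Pik3r1, none was called by edgeR (median log2 0.09), with 4 higher and 1 lower at an unadjusted p under 0.05 and 3 higher with DESeq2. The median of all genes tested was 0.0098.

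Of the 20 other actin assembly factors 2 were called, the formins Fmnl1 (log2 -1.08, adjusted p = 0.0279) and Diaph2 (log2 -0.61, adjusted p = 0.0257), both lower in G174. Neither was called without tumor 6 of G164, without tumor 1 of G174, with only the 4 KO tumors or with a fold of at least 1.5 tested. Of 8 genes that serve WAVE and WASP in blood cells, 6 were lower and none higher (median log2 -1.18). Dock2, a RAC activator of leukocytes, was at 20.8 and 17.7 CPM in G174 and at 46.9 and 61.4 CPM in G164 (log2 -1.49 ± 0.16, adjusted p = 0.00702). Rac2, Was and Coro1a, which act on the actin cytoskeleton of leukocytes, had log2 values of -1.84, -1.41 and -1.25. Without tumor 3 of G164 3 of the 8 were called, and without tumor 6 of G164 or tumor 1 of G174 only 1. These genes moved with the leukocyte markers described below, and the part of those cells in the result was not tested.

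In all, 1576 genes were called between the KO mice, 398 higher and 1178 lower in G174. A fold change over 2 was found at 1176 of them, 146 higher and 1030 lower. Scaling by library size alone changed the split to 240 higher and 1353 lower (15.1% higher in place of 25.3%), while the median of all genes moved from 0.0098 to -0.07. The calls rested on every tumor: 409 and 190 genes were called without tumor 3 or 6 of G164, and 181 and 938 without tumor 1 or 6 of G174. Without a control tumor 1223 to 1321 genes were called.

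Control mice of the same floxed genotypes, which share no tumor with this comparison, differed in 2787 genes (12.6%). Both comparisons came from the same fit with a shared estimate of each gene's spread, so their calls are not independent. Of the 1576 genes called between the KO mice, 782 (49.6%, or 28.1% of the calls between the controls) were also called between the controls. In 750 of these the fl/fl mouse was on the opposite side, so that G174 and G144, the younger mice, stood on the same side, and in 32 the direction was the same. The difference between both differences was called at 5579 genes (25.1%), of which 1427 were also called between the KO mice. It sets the younger mice against the older ones, so age cannot be told apart from Cre and genotype in it. The remaining 794 genes called between the KO mice were not called between the controls.

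Among the 1178 lower genes, both G174 tumors lay below all of the other 6 tumors at 661 (56.1%), and both G164 tumors lay above all others at 388 (32.9%). Among the 398 higher genes, the G174 tumors lay above all others at 226 (56.8%) and the G164 tumors below all others at 79 (19.8%). Over all genes tested, the 2 tumors of G174 lay outside the range of the other 6 on either side at 16.5% and those of G164 at 8.69%. These positions use the values that made the calls and are given as a description.

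**Figure D2:**
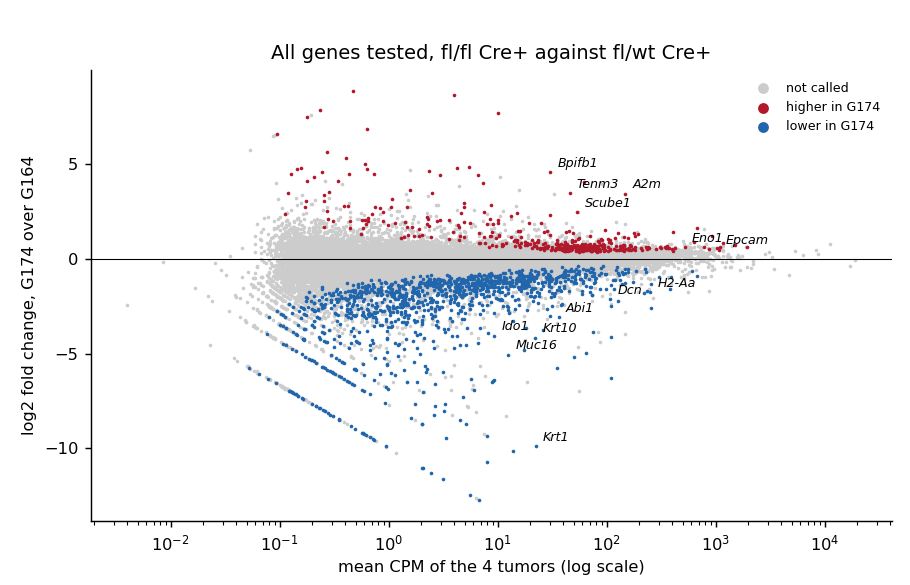
Log2 fold change of G174 over G164 against the mean CPM of the 4 KO tumors (log axis) for the genes tested, with called genes in color. The 1178 lower genes outnumber the 398 higher genes and reach larger changes, and the straight lines at low levels are genes with few counts in the G174 tumors.

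Squamous keratinization genes, which build the cornified layer of skin and appear in mammary tumors with squamous differentiation, were high in G164 and low in G174. Of 16 members tested, 10 were lower in G174 and none higher (median log2 -4.16). A gene high in 1 mouse passes the filter on low counts, so members could be tested through G164 alone. How many did so was not counted, and these numbers are given as a description. Krt1, a keratin of differentiating keratinocytes, was at 0.0305 and 0.0602 CPM in G174 and at 67.3 and 22.2 CPM in G164 (adjusted p = 0.0251). Krt10, its partner keratin, was at 2.16 and 2.53 CPM against 66.6 and 17.5 CPM (log2 -4.16 ± 0.62, adjusted p = 0.0176). Both keratins were high in the G164 tumors alone: the control tumors had 0.0762 to 1.54 CPM of Krt1 and 1.89 to 3.69 CPM of Krt10.

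Filaggrin (Flg), which bundles keratin filaments, was at 23.1 and 9.11 CPM in G164, at 0 and 0.0151 CPM in G174 and at no more than 0.789 CPM in the controls. Krtdap and Dsg1a, a desmosomal cadherin, had no count in either G174 tumor, so they were at least 107-fold and 138-fold lower there, taking 3 counts per tumor as the floor. Calm4 and Hrnr, both of the cornifying epidermis, were at least 295-fold and 245-fold lower on the same scale. At 9 of the 10 called genes both G164 tumors lay above all other tumors. The summed level of the list was 54.5 and 67.4 CPM in G174, 262 and 229 CPM in G164 and 65.0 to 90.2 CPM in the controls. Without tumor 1 of G174 no member was called, and without tumor 3 or 6 of G164 or tumor 6 of G174 the number was 3, 2 and 3.

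Muc16, a cell-surface mucin, was at 0.853 and 0.617 CPM in G174 and at 30.8 and 17.8 CPM in G164, with 1.81 to 5.22 CPM in the controls (log2 -5.04 ± 0.50, adjusted p = 0.00618). It was called in every alternative and without any single tumor. Klk10, a kallikrein protease of stratified epithelium, also fell (log2 -6.35 ± 1.36, adjusted p = 0.0401). By family, 5 of 13 kallikreins and 5 of 31 keratins tested were lower, with none higher. Genes of these families could also be tested through G164 alone.

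Few luminal and no basal epithelial markers were called. Of 17 luminal and hormone receptor genes 1 was higher and 1 lower (median log2 -0.28). Pgr, the progesterone receptor, was at 15.3 and 20.7 CPM in G174 and at 62.6 and 50.3 CPM in G164 (log2 -1.65 ± 0.30, adjusted p = 0.0271), with 21.2 to 38.4 CPM in the controls. The G164 tumors were above all others. Epcam, an epithelial adhesion protein, was at 1318 and 1168 CPM against 918 and 861 CPM (log2 0.48, adjusted p = 0.0476), and lies on chromosome 17, whose genes as a whole were higher in G174. Without tumor 3 or 6 of G164 or tumor 1 of G174 none of the 17 was called, and Epcam was not called without any 1 of the control tumors.

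None of the 14 basal and myoepithelial genes was called by edgeR (median log2 -1.48), although 10 of them lay lower in both G174 tumors than in both G164 tumors. Over all genes tested, 30.1% lay lower in this way. At an unadjusted p under 0.05 6 were lower and 1 higher, with DESeq2 2 were lower and 1 higher, and without the filter on low counts 8 were lower and 1 higher. The summed level was 238 and 574 CPM in the G174 tumors and 1272 and 1045 CPM in the G164 tumors. Acta2, smooth muscle actin, illustrates the spread: it was at 39.6 and 139 CPM in G174 and at 346 and 252 CPM in G164 (adjusted p = 0.161). None of the 13 milk genes was called by edgeR (median log2 -0.31), with 1 higher and 3 lower at an unadjusted p under 0.05 and 1 in each direction with DESeq2. None of the 17 epithelial junction genes was called by edgeR (median log2 0.12), with 4 higher and 2 lower at an unadjusted p under 0.05 and 3 higher with DESeq2. Of 14 genes of the EGF family and its receptors only the ligand Nrg4 was called (log2 -2.40, adjusted p = 0.0323). It was not called with only the 4 KO tumors or with a fold of at least 1.5 tested.

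**Figure D3:**
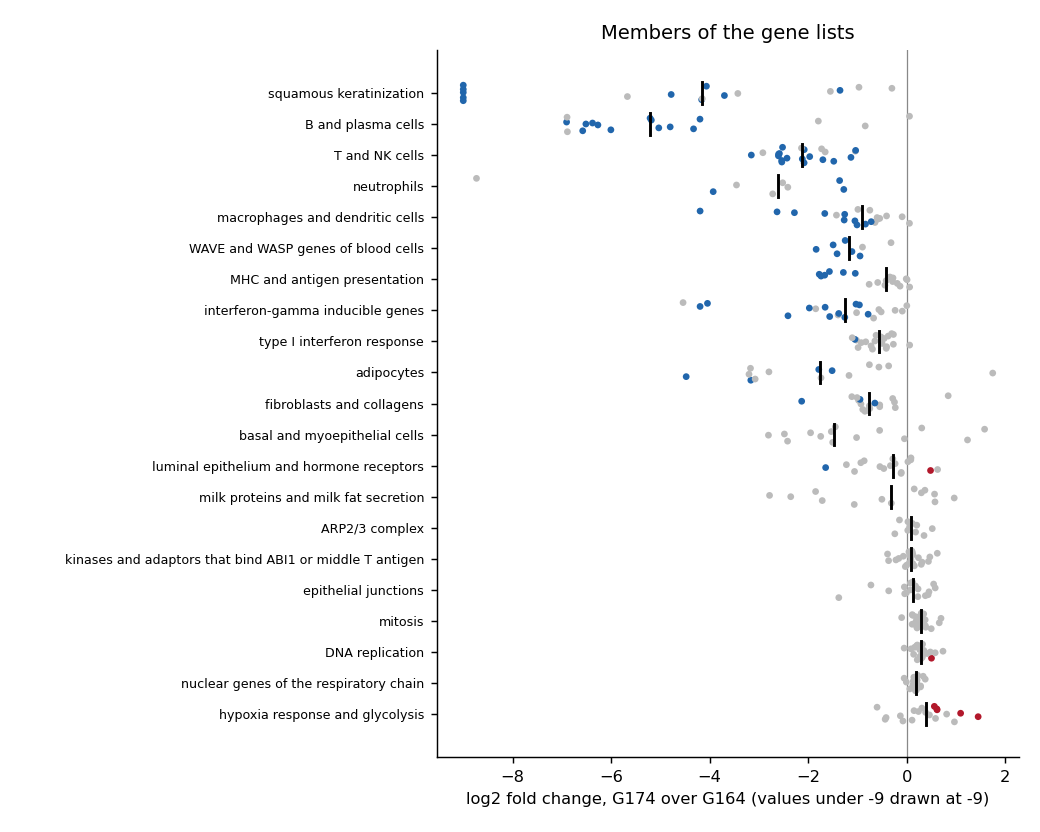
Log2 fold change of G174 over G164 for each member of 21 gene lists, 1 point per gene, with the list median as a black bar (blue, called lower; red, called higher; grey, not called; values under -9 are drawn at -9). Lower genes lie in the squamous, immune cell, interferon, antigen presentation, adipocyte and fibroblast lists, among others, with list medians down to -5.21. The hypoxia and glycolysis list holds 5 higher genes.

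B and plasma cell genes were far lower in G174 than in G164. Of 17 members tested 12 were lower in G174 and none higher (median log2 -5.21). Ighg2c, a constant region of IgG antibodies, was at 0.0609 and 0.135 CPM in G174 and at 13.8 and 10.2 CPM in G164 (log2 -6.90 ± 0.46, adjusted p = 0.00145). Jchain, which joins secreted IgA and IgM, was at 0.198 and 2.23 CPM against 43.3 and 24.6 CPM (log2 -4.80 ± 0.93, adjusted p = 0.0314). Ms4a1, the CD20 antigen of B cells, was uneven between the G164 tumors, at 0.877 CPM in tumor 3 and 9.59 CPM in tumor 6.

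The summed level of the list was 519 and 384 CPM in G164, 14.7 and 31.2 CPM in G174 and 31.6 to 54.0 CPM in the controls, so both G164 tumors stood above the other 6. Of 86 immunoglobulin V genes tested, 53 were lower and none higher in G174. Together the 86 held 136 and 92.7 CPM in G164, 2.85 and 6.23 CPM in G174 and 3.31 to 6.79 CPM in the controls. A gene high in 1 mouse passes the filter on low counts, so V genes and the listed B and plasma cell genes could be tested through G164 alone. How many did so was not counted, and the numbers lower and higher are given as a description. V genes are near-identical copies, so counts of a single one are uncertain. The number of lower B and plasma cell genes was 3 to 10 when any tumor was left out, with 3 without tumor 6 of G164 and 5 without tumor 1 of G174. In bulk tumor RNA, fewer cells of a type and less RNA per cell cannot be told apart.

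T and NK cell genes were low in G174 as well. Of 21 members 16 were lower and none higher (median log2 -2.12). Cd5, a T-cell surface receptor, was at 0.107 and 0.271 CPM in G174 and at 1.37 and 2.02 CPM in G164 (log2 -3.15 ± 0.47, adjusted p = 0.0177). Cd28, the co-stimulatory receptor, was at 0.274 and 0.346 CPM against 1.73 and 2.05 CPM (log2 -2.60 ± 0.31, adjusted p = 0.0110). Of the 16 lower genes, 14 were at their lowest in G174 among all 8 tumors. Their summed level was 14.4 and 16.2 CPM in G174, 52.1 and 57.4 CPM in G164, 69.5 and 61.8 CPM in G184 and 24.5 and 24.7 CPM in G144. Without tumor 3 of G164 10 were called, and without tumor 6 of G164 or tumor 1 of G174 only 3.

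Among macrophage and dendritic cell genes 10 of 20 were lower and none higher (median log2 -0.91). Clec9a, a receptor of cross-presenting dendritic cells for dead cells, was at 0.122 and 0.0753 CPM in G174, at 1.83 and 1.84 CPM in G164 and at 0.548 to 4.57 CPM in the controls (log2 -4.19 ± 0.29, adjusted p = 0.00158). Xcr1, the chemokine receptor of the same cells, and Flt3, a growth factor receptor of dendritic cells, had log2 values of -2.63 and -2.28. Ccr2, which brings monocytes into tissue, was at 12.6 and 15.7 CPM against 45.1 and 44.5 CPM (log2 -1.66 ± 0.17, adjusted p = 0.00628). Without tumor 3 of G164 4 of the 20 were called, and without tumor 6 of G164 or either tumor of G174 only 2. Of 8 neutrophil genes 3 were lower, S100a9, Csf3r and Il1b, and S100a9 was uneven in G164, at 5.20 CPM in tumor 3 and 25.2 CPM in tumor 6. No neutrophil gene was called without tumor 6 of G164 or tumor 1 of G174, 1 without tumor 6 of G174 or either tumor of G144, 7 with DESeq2 and 8 without the filter on low counts.

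Class II antigen presentation genes were lower in G174, with little spread between the tumors of a mouse. Of 18 MHC genes 6 were lower and none higher (median log2 -0.43), and all 6 belong to the class II pathway: H2-Aa, H2-Ab1, H2-Eb1, H2-DMa, H2-DMb1 and Cd74. H2-Aa was at 110 and 123 CPM in G174 and at 403 and 374 CPM in G164 (log2 -1.74 ± 0.14, adjusted p = 0.00284). Cd74, the invariant chain, was at 183 and 204 CPM against 569 and 579 CPM (log2 -1.57 ± 0.13, adjusted p = 0.00371). In the controls H2-Aa was at 416 and 523 CPM in G184 and at 152 and 145 CPM in G144, so the G174 tumors lay below all other tumors and the G164 tumors lay between the control mice. Between 5 and 6 of these genes were called when any tumor was left out.

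Interferon-gamma inducible genes were lower too: 11 of 21 were called lower and none higher (median log2 -1.26, or -1.03 with the member that had no count in G174 set at its floor). Gbp5, an interferon-induced GTPase, was at 1.40 and 2.14 CPM in G174 and at 11.5 and 7.41 CPM in G164 (log2 -2.41 ± 0.33, adjusted p = 0.0139). The controls spanned a much wider range, with 104 and 85.4 CPM in G184 against 1.57 and 2.53 CPM in G144. Cxcl9, a chemokine that attracts T cells, was at 1.66 and 2.18 CPM against 10.2 and 4.99 CPM (log2 -1.98 ± 0.44, adjusted p = 0.0451). Ido1, the tryptophan-degrading enzyme, was at 0.853 and 1.26 CPM against 22.4 and 12.6 CPM (log2 -4.04 ± 0.40, adjusted p = 0.00628), and here the G164 tumors lay above all others.

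Of 20 type I interferon genes 1 was called lower and none higher, with a list median of log2 -0.57. All 20 were called between the controls, with G184 the higher mouse. Without tumor 1 of G174 only 1 of the 21 interferon-gamma genes was called lower, and without tumor 3 of G164, tumor 6 of G164 or tumor 6 of G174 the number was 3, 6 and 3.

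Promoter sequences of the interferon-gamma group are shown because 11 of its 21 members were called lower. RefSeq promoters (GRCm38.p6, 250 bases upstream of a listed start) were found for 14 of the 21 genes. The interferon-stimulated response element core GAAANNGAA, searched on both strands, was present in 12 of them (85.7%) and in 7.70% of the 13305 genes tested that had a promoter. The STAT motif TTCNNNGAA was present in 8 of the 14 (57.1%) and in 7.34% of all. Capitals mark matches to either motif in the sequences of Gbp5, Gbp7 and Cxcl9, read 5′ to 3′ on the strand of the gene.
Gbp5, chr3:142496684-142496933, plus strand: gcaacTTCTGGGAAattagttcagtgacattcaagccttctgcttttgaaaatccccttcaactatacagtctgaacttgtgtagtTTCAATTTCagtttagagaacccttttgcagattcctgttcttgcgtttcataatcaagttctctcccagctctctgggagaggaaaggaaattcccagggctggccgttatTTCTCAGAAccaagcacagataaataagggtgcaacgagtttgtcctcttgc
Gbp7, chr3:142530086-142530335, plus strand: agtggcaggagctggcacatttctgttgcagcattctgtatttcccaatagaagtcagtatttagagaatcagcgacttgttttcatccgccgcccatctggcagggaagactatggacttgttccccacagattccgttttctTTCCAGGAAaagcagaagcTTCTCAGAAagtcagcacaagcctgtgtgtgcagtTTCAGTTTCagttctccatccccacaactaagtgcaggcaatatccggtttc
Cxcl9, chr5:92328080-92328329, minus strand: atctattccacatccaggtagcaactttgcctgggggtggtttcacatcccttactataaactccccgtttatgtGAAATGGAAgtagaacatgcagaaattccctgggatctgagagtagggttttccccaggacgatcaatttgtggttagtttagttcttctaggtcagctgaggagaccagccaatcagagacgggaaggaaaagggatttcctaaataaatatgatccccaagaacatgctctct
A match describes letters in this window and no binding was measured. Among all genes called lower that had a promoter, GAAANNGAA was present in 13.5%, and among those called higher in 3.91%.

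**Figure D4:**
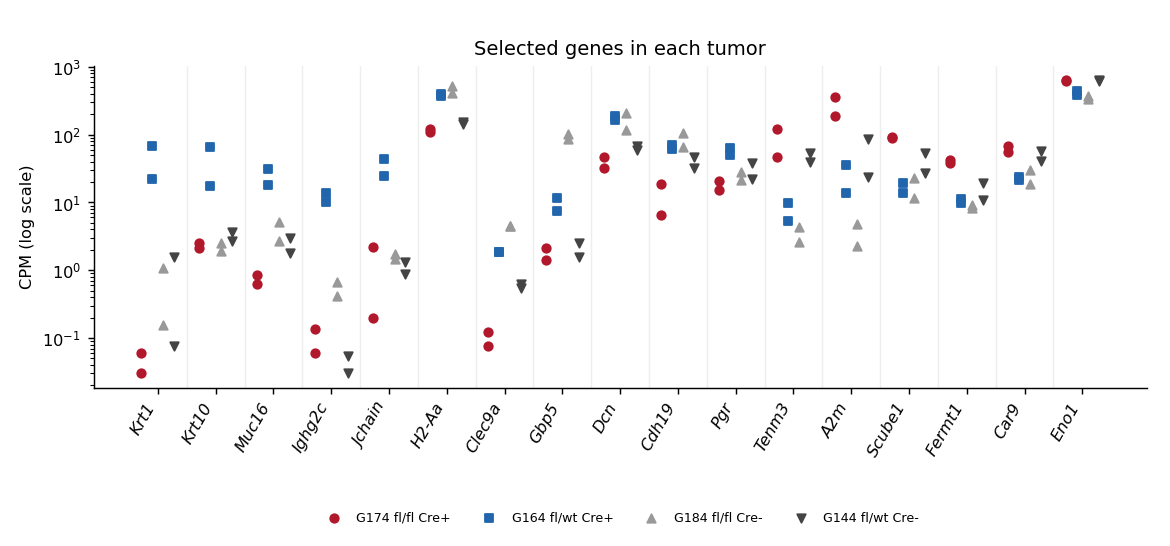
Level in CPM (log axis) of 17 named genes, with 1 point per tumor and 2 tumors per mouse. Krt1, Krt10 and Ighg2c stand out in G164, H2-Aa and Clec9a are lowest in G174, and Scube1 and Fermt1 are highest in G174.

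Among stromal genes the number called depended on the test. Of 18 fibroblast and collagen genes 3 were called lower and none higher (median log2 -0.78). In both G174 tumors 16 of the 18 lay lower than in both G164 tumors, as did 30.1% of all genes tested. With DESeq2 10 were lower and 1 higher, and without the filter on low counts 13 were lower and 1 higher. Dcn, the matrix proteoglycan decorin, was at 32.4 and 47.6 CPM in G174 and at 163 and 188 CPM in G164 (log2 -2.13 ± 0.30, adjusted p = 0.0156). Postn and Pdgfra, a matrix protein and a growth factor receptor of fibroblasts, had log2 values of -0.95 and -0.65. Leaving out any 1 of the KO tumors left 0 or 1 of the 18 called. Mmp3 and Mmp2, proteases that degrade matrix, were the only genes called among 13 of that family, both lower (log2 -2.11 and -1.35). The median log2 of the 13 was 0.07, with 8 values above 0. At an unadjusted p under 0.05 2 were higher and 3 lower. Mmp2 was not called with a fold of at least 1.5 tested. The summed fibroblast level was 3535 and 2427 CPM in G174 and 5296 and 4777 CPM in G164.

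Of 14 adipocyte genes 4 were lower (median log2 -1.76). Lep, the adipokine leptin, was at 0.107 and 0.105 CPM in G174 and at 1.62 and 3.18 CPM in G164 (log2 -4.48 ± 0.44, adjusted p = 0.00605). Pparg, the regulator of fat cell differentiation, was at 1.51 CPM in both G174 tumors against 5.22 and 5.18 CPM (log2 -1.79 ± 0.22, adjusted p = 0.0111). The summed adipocyte level was 146 and 116 CPM in G174 and 194 and 366 CPM in G164. Cdh19, a cadherin of Schwann cells, was at 6.49 and 18.9 CPM against 60.4 and 70.7 CPM (log2 -2.37 ± 0.49, adjusted p = 0.0379), and it was the only one of 6 Schwann cell genes called. Only 1 adipocyte gene was called without tumor 6 of G164 or tumor 1 of G174, and 2 without tumor 6 of G174 or any 1 of the control tumors, against 11 lower and 1 higher with DESeq2.

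Skeletal muscle RNA marked single tumors. None of its 13 genes was called by edgeR (median log2 -6.19), with 7 lower at an unadjusted p under 0.05 and 6 with DESeq2. The summed level was 965 CPM in tumor 3 of G164, 28.4 CPM in tumor 6 of G164, 20.6 and 24.6 CPM in G174 and 649 CPM in tumor 8 of G144. Ttn, the giant sarcomere protein, was at 524 CPM in tumor 3 and 23.1 CPM in tumor 6 of G164. The 6 red blood cell genes did not pass either (median log2 -0.49), with 2 lower at an unadjusted p under 0.05 and 2 with DESeq2.

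Genes higher in G174 included secreted and membrane proteins. Tenm3, a teneurin adhesion receptor, was at 121 and 46.7 CPM in G174 and at 9.91 and 5.29 CPM in G164 (log2 3.46 ± 0.54, adjusted p = 0.0192). In the controls it was at 53.8 and 39.7 CPM in G144 and at 4.37 and 2.61 CPM in G184. Bpifb1, a secreted protein of mucosal surfaces, was at 55.5 and 60.9 CPM against 3.96 and 0.898 CPM (log2 4.59 ± 0.93, adjusted p = 0.0350), and Ahsg, the serum glycoprotein fetuin-A, at 13.3 and 7.92 CPM against 0.515 and 0.225 CPM (log2 4.85 ± 0.89, adjusted p = 0.0279).

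Scube1, A2m and Fermt1 were above all other tumors in both G174 tumors. Scube1, a secreted and membrane-bound EGF-domain protein, was at 89.0 and 93.6 CPM in G174, at 19.04 and 13.6 CPM in G164 and at 11.7 to 53.6 CPM in the controls (log2 2.48 ± 0.42, adjusted p = 0.0233). Fermt1, the integrin activator kindlin-1, was at 42.1 and 37.8 CPM against 11.2 and 9.88 CPM, with 8.35 to 19.4 CPM in the controls (log2 1.92 ± 0.26, adjusted p = 0.0138). A2m, a protease inhibitor, was at 186 and 357 CPM against 36.3 and 13.6 CPM (log2 3.45 ± 0.78, adjusted p = 0.0460). Among the most increased genes, Bpifb1, A2m, Wnk4, Scube1, Nipal4, Fzd9 and Fermt1 were highest in G174, while G144 reached or overlapped the G174 level at Ahsg, Tenm3, Fbp1 and Cdkn1c. No named gene that was higher in G174 stayed called in every alternative. With only the 4 KO tumors Bpifb1, Tenm3 and A2m were not called. When 1 tumor was left out the log2 value ran from 3.88 to 6.04 for Bpifb1. It ran from 2.62 to 4.03 for Tenm3 and from 2.90 to 4.34 for A2m.

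Wnt pathway genes gave 1 higher and 2 lower calls among 24. Lgr4, an R-spondin receptor, was at 180 and 231 CPM in G174 and at 127 and 120 CPM in G164 (log2 0.73 ± 0.16, adjusted p = 0.0452). The ligand Wnt6 and the secreted inhibitor Sfrp2 were lower (log2 -2.08 and -1.69), and the Wnt receptor Fzd9, which is outside that list, was higher (log2 2.10 ± 0.33, adjusted p = 0.0192). No gene of the Wnt list was called without tumor 3 or 6 of G164 or tumor 1 of G174, and 1, lower, without tumor 6 of G174. Lgr4 was not called without either tumor of G184. Of 23 genes of the TGF-beta and BMP pathway only the target Id3 was called (log2 -1.14 ± 0.24, adjusted p = 0.0385).

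Glycolysis and hypoxia genes were the group with the most higher calls, 5 of 19 with none lower (median log2 0.38). Values were below 0 at 5 of the 19, and at an unadjusted p under 0.05 7 were higher and 2 lower. Car9, a carbonic anhydrase induced by low oxygen, was at 54.7 and 68.7 CPM in G174 and at 23.9 and 21.3 CPM in G164 (log2 1.45 ± 0.26, adjusted p = 0.0272). Eno1, a glycolytic enzyme, was at 623 and 630 CPM against 384 and 435 CPM (log2 0.61 ± 0.11, adjusted p = 0.0253). Egln3, Gapdh and Pkm were called in the same direction. Control tumors of G144 lay at 612 and 637 CPM of Eno1 and those of G184 at 369 and 340 CPM. When any tumor was left out 0 to 4 of the 19 were called higher, with none without tumor 3 or 6 of G164 or without tumor 1 of G174.

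Few mitosis and replication genes were called. Of 22 mitosis genes none was called by edgeR or DESeq2 and none had an unadjusted p under 0.05, with 21 of 22 values above 0 and a median log2 of 0.28. Mki67, a marker of cycling cells, was at 292 and 336 CPM in G174 and at 344 and 332 CPM in G164 (log2 -0.10, adjusted p = 0.884). Of 21 replication genes only the helicase subunit Mcm4 was called (log2 0.50 ± 0.11, adjusted p = 0.0381). Cdkn1c, a CDK inhibitor and imprinted gene, was higher (log2 2.05 ± 0.33, adjusted p = 0.0208). Rb1, the retinoblastoma protein that restrains cell cycle entry, was at 236 and 183.6 CPM against 403 and 397 CPM (log2 -0.93 ± 0.17, adjusted p = 0.0286). Neither Mcm4 nor Rb1 was called with only the 4 KO tumors or with a fold of at least 1.5 tested. None of 17 nuclear genes of the respiratory chain was called by edgeR (median log2 0.18), with 4 higher at an unadjusted p under 0.05 and 2 with DESeq2.

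Whole chromosomes differed between the KO mice. Of the 398 higher genes, 204 (51.3%) lay on chromosomes 8, 11, 16 and 17, which hold 20.1% of the genes tested, while these chromosomes held 199 (16.9%) of the lower genes. Over the 9283 protein-coding genes with at least 10 CPM in every tumor, the median log2 difference of G174 over G164 was 0.26 on chromosome 8, 0.33 on chromosome 11, 0.33 on chromosome 16 and 0.34 on chromosome 17. On the 16 other chromosomes it was between -0.04 and 0.14. The share of genes with a positive difference was 82.6% on chromosome 8 and 86.6%, 86.2% and 86.7% on chromosomes 11, 16 and 17, and the medians of 20 Mb windows ran from 0.23 to 0.40 along these 4 chromosomes. These chromosomes were chosen after their values were seen, so no test is given.

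By tumor, as the median log2 deviation from the middle of the 8 tumors, chromosome 16 was at 0.29 and 0.15 in tumors 1 and 6 of G174 and at 0.05 and -0.10 in tumors 3 and 6 of G164. Chromosome 17 was at 0.24 and 0.07 against -0.04 and -0.12, and chromosome 11 at 0.15 and 0.20 against 0.02 and -0.13. Chromosome 8 was at 0.14 and 0.07 against -0.07 and -0.04. On each of these chromosomes both G174 tumors were above both G164 tumors. Control tumors had shifts on the same chromosomes. Tumor 6 of G144 was at 0.33 on chromosome 8, above both G174 tumors, at 0.20 on chromosome 17, between them, and at 0.14 on chromosome 11, while tumor 9 of G184 was at -0.25 on chromosome 11. Tumor 8 of G144 was at 0.19 on chromosome 7. DNA copy number was not measured.

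**Figure D5:**
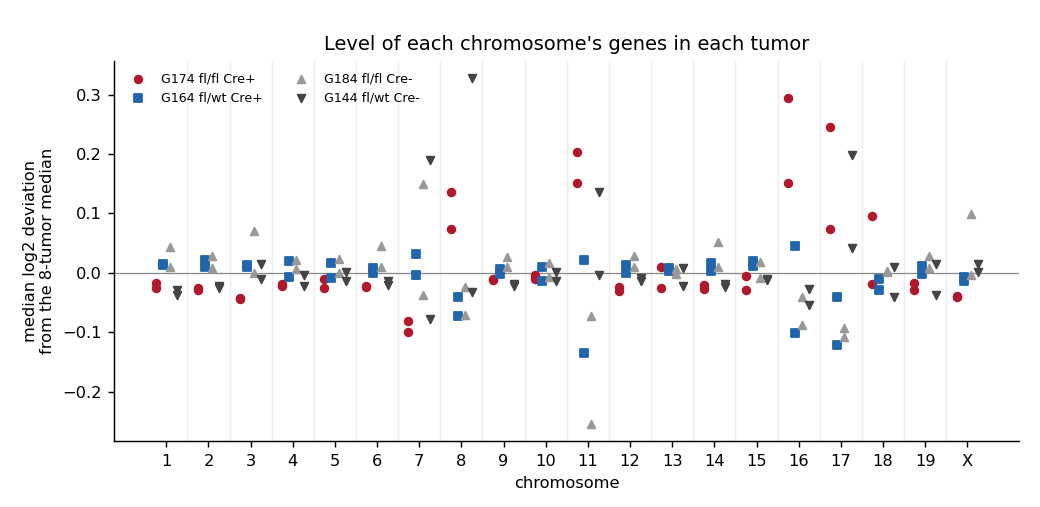
Median log2 deviation of each chromosome's protein-coding genes (at least 10 CPM in every tumor) from the median of the 8 tumors, 1 point per tumor. G174 tumors are at 0.07 to 0.29 on chromosomes 8, 11, 16 and 17, above the G164 tumors, which are at -0.13 to 0.05 there.

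Scaling each chromosome by its median gene in each tumor, an alternative added after these values were seen, left 218 higher and 1289 lower genes, with 41 of the higher genes (18.8%) on these 4 chromosomes. Epcam and Mcm4, which lie on chromosomes 17 and 16, then had log2 values of 0.17 and 0.19 and were not called (adjusted p = 0.326 and 0.371). Abi1 on chromosome 2 stayed at -3.10. The share of higher genes on these chromosomes was 15.8% without tumor 6 of G164 and 16.3% without tumor 1 of G174, with 19 and 49 higher genes in all.

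Around Abi1, 37 other genes were tested within 2 Mb, of which 4 were lower and none higher (10.8%). Within 5, 10 and 20 Mb the called share was 8.11%, 6.33% and 5.25%, against 7.1% of all genes. Besides Gm13357, the lower genes were the cytokines Il1f8 and Il1f9 of the interleukin-36 group, which act in skin epithelium, and the pseudogene Gm13410. Gm13410 was at 0.229 and 0.226 CPM in G174 and at 1.56 and 1.35 CPM in G164, and it was also lower in the fl/fl control G184, at 0.282 and 0.233 CPM, than in G144, at 1.23 and 1.40 CPM (log2 -2.67 and -2.34, adjusted p = 0.00628 and 0.00527). It was thus low in both fl/fl mice whether or not they had Cre.

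With at least 1 CPM in both tumors of a KO mouse and at most 3 counts in each tumor of the other, 32 genes were found in G164 and not in G174, and 2 in G174 and not in G164. Of the genes found in G164, 14 were immunoglobulin V genes and others were epidermal, such as Rptn, Flg, Calm4 and Hrnr. Gm4847, a predicted gene, was at 8.17 and 7.66 CPM in G174 with 1 count in each G164 tumor. Gm8210, a processed pseudogene, was at 4.06 and 4.02 CPM in G164 and at 6.02 and 6.29 CPM in the fl/wt control G144, with at most 1 count in each tumor of the fl/fl mice G174 and G184, and Gm9008 followed the same split at 1.56 and 2.13 CPM in G164. Gm12666 showed the split of G174 and G144 against G164 and G184, with 1.25 CPM in both G174 tumors and at most 1 count in each G164 tumor.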

How the data were processed

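Tumor RNA was made into stranded total RNA libraries depleted of ribosomal RNA and read as paired ends on 4 lanes in 2 runs. After bcl2fastq, STAR was used by the authors for alignment to GRCm38/mm10 and for counting (submitters' processing notes), and raw counts per gene were deposited for every lane and run. Tool versions and the annotation used are not stated in the sources at hand. A deposited table of sums per mouse was not used here.

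For each tumor, counts on the reverse strand were added over lanes and runs. Of the stranded counts 4.76% to 6.80% were on the forward strand, and 48.0% to 52.3% of all reads were counted in a gene. Reads outside genes were left out of library sizes. GENCODE M21 gave symbols and places. Counts were filtered by filterByExpr, which kept 22187 genes and 99.96% of counts, given TMM factors and fitted, all 8 tumors together, with a coefficient per mouse in edgeR 4.0.16 (quasi-likelihood, R 4.3.3), with 4 residual and 3.06 prior degrees of freedom and a common coefficient of variation of 0.229. In simulated counts for G174 against G164 over 22187 genes, changed genes were raised in G174 and had a mean of at least 1 CPM. All other genes were equal between the mice. Of 100 genes raised 2-fold 52 were called, and of 100 raised 4-fold 87, with 12 unchanged genes (7.95% of calls). Decreases and changes at lower levels were not simulated.

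Named are Abi1 and the WAVE genes, the 12 protein-coding genes at either end of the fold changes (called, mean of at least 5 CPM, no overlap), up to 4 called members per list, those that changed most, or its most abundant member if none was called, up to 6 genes per direction found in 1 KO mouse only, and called genes within 2 Mb of Abi1. A few genes that the rule names are not reported here. The comparison, the lists and the rule were chosen with earlier results of these data known. Chromosomes, gene families, Gm8210, Gm9008, Pkm, H2-DMa, H2-DMb1 and the printed promoters were chosen after values were seen. Alternatives were DESeq2 1.42.0 and its size factors, library size, no filter, unstranded counts, each run, a fold of at least 1.5, the 4 KO tumors alone, chromosome scaling and leaving out each tumor.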

Additional observations from a re-analysis of the deposited data

Results flagged for a closer look

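The difference between fl/fl and fl/wt mice itself differed between Cre+ and Cre- mice at 5579 genes (edgeR, adjusted p under 0.05). The values here are log2 differences of differences, G174 over G164 minus G184 over G144. This sets the younger mice G174 and G144 against the older mice G164 and G184. Age and a Cre-dependent genotype difference therefore cannot be told apart in these values. Among the WAVE genes they were -3.05 for Abi1, 0.53 for Abi2, -1.54 for Abi3 and -3.11 for Cyfip2. Abi2 and Abi3 were not called between the KO mice.

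Among the genes that were most increased in G174, the values were Ahsg 10.26, Bpifb1 9.05, Tenm3 7.20, A2m 7.40, Wnk4 4.58 and Scube1 3.69. For the others they were Fbp1 5.18, Nipal4 5.02, Fzd9 3.14, Cdkn1c 4.22 and Fermt1 2.72. The same test was passed by genes most decreased in G174, with Klk10 -7.84, Muc16 -5.76, Jchain -5.33, Mmrn1 -8.15, Krt10 -3.65, Ido1 -5.11 and S100a9 -5.04. At genes with few or no counts in several tumors the fitted values depend on the prior count and are no measure of size, and they were Calm4 -13.71, Hrnr -13.69, Flg -9.15, Rptn -14.41 and Krt1 -9.50.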

How the results depend on the processing

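No paired analysis was possible because G174 and G164 share only 1 tumor number, which does not link their tumors. Without the filter on low counts 3597 genes were called (1017 higher, 2580 lower), with DESeq2 3130 (1166 and 1964), with a fold of at least 1.5 tested 455 (52 and 403), and with only the 4 KO tumors 656 (113 and 543). The higher genes numbered 240 under library size alone and 218 under chromosome scaling. Leaving out 1 tumor gave 181 to 1321 calls (19 to 380 higher, 132 to 1040 lower), where a mouse left with 1 tumor was assumed to vary like the others. The difference of differences was called at 2349 genes with a fold of at least 1.5 and at 2079 to 4817 when 1 tumor was left out. The controls differed at 4484 genes by DESeq2, at 476 with a fold of at least 1.5 and at 205 to 3164 when 1 tumor was left out. Abi1 ranged from -3.32 to -2.83 when 1 tumor was left out, and was -2.85 on unscaled unstranded sums.

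Of 91 named genes called, Abi1 and 34 others stayed called under the alternatives that kept all tumors, and none changed direction. Abi1 and 13 others stayed called in every alternative run: Ccr2, Cd74, Clec9a, Cxcl13, Dock2, Gm13410, H2-Aa, H2-Ab1, H2-Eb1, Ido1, Ighg2c, Lep and Muc16. All of these were lower in G174. For most genes the spread between tumors exceeded the counting error. With 2 tumors of 1 mouse a genotype, the mice and the genotypes cannot be told apart.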
